A study of Mus musculus with 2 samples.

Results

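The 34 genes described here encode the route that glucose takes through a blood neutrophil: transporters of glucose and lactate, the enzymes of glycolysis and their regulators, the enzymes of the pentose phosphate pathway, and the enzymes that build and break glycogen. They were chosen by name, as a list of symbols, from the 55536 genes that the main gene table holds, and all 34 were found in it. Levels were measured by total RNA sequencing of blood neutrophils. The animals were C57BL/6J mice, labelled as adult at an age between 5 and 6 weeks, and the labels name no mutation, transgene or treatment and give the sex as not collected. The data are 2 libraries of a single group, replicates 1 and 2, each made with ScriptSeq v2 from 100 ng of RNA at a size range of 200 to 1000. Both carry the same donor identifier, so the spread between them may be technical, and there is no other condition to compare with.

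Neutrophils hold few mitochondria and make most of their ATP by glycolysis, which splits glucose to pyruvate and, with lactate dehydrogenase, to lactate that leaves the cell through monocarboxylate transporters. The pentose phosphate pathway draws glucose 6-phosphate away from glycolysis. Its oxidative arm makes NADPH, which feeds the oxidase that produces the respiratory burst, and its non-oxidative arm returns sugar phosphates to glycolysis. Neutrophils also store glycogen, which lets them work at inflamed sites where glucose is scarce.

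Over annotated genes the libraries held 22646991 (replicate 1) and 21471673 (replicate 2) expected counts, and a gene with no count lies below 0.132 and 0.140 CPM there (counts scaled to the library total). Expected counts are reads shared out among the transcripts they could come from, so they need not be whole. Levels are in TPM, which divides counts by transcript length and scales each library to a fixed total, and are given per library or as the mean with its SD (n = 2). Unless another table is named, values come from the gene and transcript tables on the GENCODE M21 gene models. A gene table on the older M4 models and a transcript table made without an alignment (the alignment-free table, summed per gene) were deposited for the same libraries and serve as alternatives. Nuclear protein-coding genes took 8.81% of the TPM in replicate 1 and 8.35% in replicate 2, so a TPM of 1 is a high bar for a messenger RNA here. The labelled cell type was checked with marker lists. All 10 neutrophil markers were detected, with a summed TPM of 2539 in replicate 1 and 2569 in replicate 2. Markers of other blood cells were present too: 8 of 8 for B cells (summed TPM 629 and 573), 6 of 7 for T cells (25.1 in both libraries), 5 of 6 for monocytes (26.9 and 24.9), 5 of 7 for red cells (4327 and 4263), 5 of 7 for platelets (24.5 and 25.0) and 1 of 4 for eosinophils (3.28 and 3.52). The median TPM was 70.8 ± 1.24 for neutrophil markers, 47.8 ± 2.10 for B cell markers and 179 ± 13.7 for red cell markers. It was 2.6 ± 0.32 for T cells, 4.8 ± 0.34 for monocytes, 3.3 ± 0.13 for platelets and 0.46 ± 0.018 for eosinophils. Single markers of a list differed widely. Klf1 of red cell precursors stood at a TPM of 0 and 0.01, while the highest red cell marker had a mean of 2894. Epx of eosinophils stood at 0 in both libraries, while the highest eosinophil marker had a mean of 2.475. In bulk RNA, fewer cells of a type and less RNA per cell cannot be told apart, and the part of these other cells in the levels below was not tested.

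Most of the 34 genes were expressed. A gene was called detected when neither library fell under a TPM of 1, and 30 of the 34 genes passed (88.2%), against 34.9% of the 22028 protein-coding genes and 15.7% of all annotated genes. The median of the 34 genes was 8.11 ± 0.166 TPM, against 0.115 ± 0.00707 for protein-coding genes. The list and the thresholds were chosen with earlier results of these data known, so these comparisons describe the list and test nothing. The 4 genes that were not detected were the muscle phosphofructokinase Pfkm, the lactate dehydrogenase Ldhb, the lactate transporter Slc16a1 and the glycogen synthase Gys1. Gys1 had a TPM of 0.85 in replicate 1 and 1.19 in replicate 2, so it passed in replicate 2 alone. None of the 34 was without counts: the lowest held 17 and 15 expected counts (Ldhb).

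**Figure D1:**
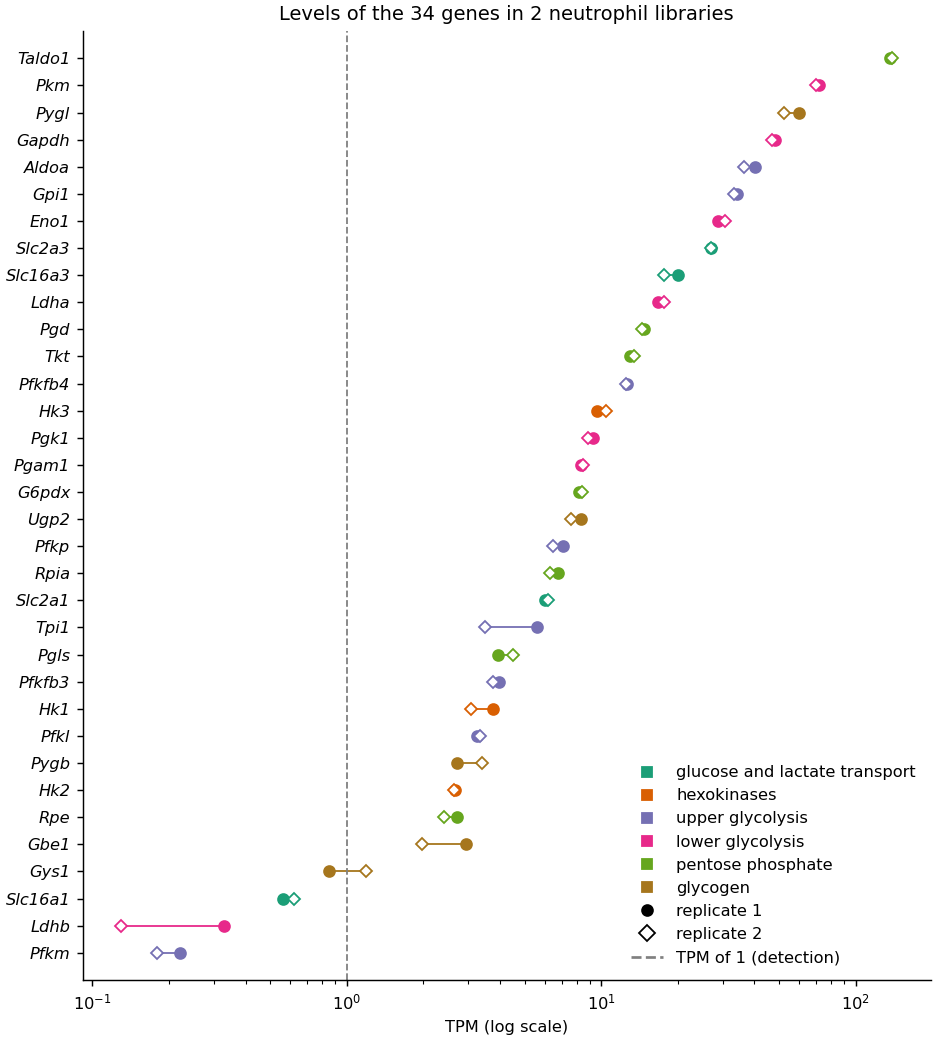
TPM (log scale) of each of the 34 genes in replicate 1 (filled circles) and replicate 2 (open diamonds), coloured by role and ordered by the mean of the 2 libraries, with a dashed line at a TPM of 1. Taldo1 stands highest at 137 and 139, 3 genes lie below the line in both libraries, and Gys1 lies on either side of it.

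Taldo1, the transaldolase of the non-oxidative pentose phosphate arm, was the highest of the 34 genes (ENSMUSG00000025503.5, chr7:141392199-141402968, plus strand, GRCm38). It had a TPM of 137 in replicate 1 and 139 in replicate 2, from 11448 and 11564 expected counts. Pkm, the pyruvate kinase that closes glycolysis, came next with 71.9 and 69.9 TPM (ENSMUSG00000032294.17, chr9:59656368-59679375, plus strand). Pygl, the liver-type glycogen phosphorylase, followed with 60.1 and 52.5 TPM (ENSMUSG00000021069.17, chr12:70190811-70231488, minus strand). The rest of the 6 highest were Gapdh with 48.3 and 47.0 TPM, Aldoa with 40.1 and 36.4, and Gpi1 with 34.3 and 33.3. The order of these 6 genes by TPM was the same in both libraries, and no library of one overlapped a library of the next.

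At the other end, Pfkm had a TPM of 0.22 in replicate 1 and 0.18 in replicate 2, from 59 and 44 expected counts. Ldhb had 0.33 and 0.13 TPM, and Slc16a1 had 0.56 and 0.62. The libraries of Pfkm lie inside the range of Ldhb, so the order of these 2 lowest levels is not resolved. Each of the 3 is the minor member of a family whose leading member was well expressed.

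Glucose enters cells through facilitative transporters, of which Slc2a3 (GLUT3, a carrier of high affinity) and Slc2a1 (GLUT1, the widely expressed carrier) were among the 34. Slc2a3 had a TPM of 27.1 in replicate 1 and 27.0 in replicate 2, and Slc2a1 had 6.02 and 6.20. Slc2a3 thus held 81.6 ± 0.341% of the summed TPM of this pair, and its level was 4.42 ± 0.1002 times that of Slc2a1. By TPM of protein-coding transcripts alone the ratio was 2.66 ± 0.474. Lactate leaves through Slc16a3 (MCT4, the carrier of cells with high lactate output), while Slc16a1 (MCT1) carries lactate in both directions. Slc16a3 had 19.9 and 17.6 TPM and took 96.9 ± 0.473% of the TPM of these 2 carriers. In both pairs the groups of values for the leading and the minor gene did not overlap.

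Hexokinase traps glucose in the cell as glucose 6-phosphate. Hk3, the isozyme of myeloid cells, had a TPM of 9.64 in replicate 1 and 10.5 in replicate 2. Hk1, the widely expressed isozyme, had 3.76 and 3.08, and Hk2, the inducible isozyme of muscle and growing cells, had 2.66 and 2.64. Hk3 therefore held 62.3 ± 3.28% of hexokinase TPM, Hk1 21.2 ± 3.10% and Hk2 16.4 ± 0.181%. Hk3 stood 2.98 ± 0.591 times above Hk1 by TPM of all transcripts. By TPM of protein-coding transcripts alone the ratio was 1.43 ± 0.406, and by their expected counts it was 0.889 in replicate 1 and 1.13 in replicate 2, so on those scales the lead over Hk1 is not resolved. Over Hk2 the lead was 3.79 ± 0.242 times by TPM and 2.82 ± 0.334 times by TPM of protein-coding transcripts. It was 1.42 ± 0.0568 times by expected counts of protein-coding transcripts and 6.54 ± 1.18 times in the alignment-free table. Hk1 was the only one of the 34 genes whose TPM lay outside the interval that the authors' deposited table gives for it, at 3.76 against bounds of 3.95 to 4.82 in replicate 1 and at 3.08 against 3.29 to 4.09 in replicate 2.

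Phosphofructokinase commits the sugar to glycolysis. Pfkp, the platelet-type subunit, had a TPM of 7.10 in replicate 1 and 6.46 in replicate 2. Pfkl, the liver-type subunit, had 3.24 and 3.34, and the muscle-type Pfkm was near the bottom of the list. The shares of the summed TPM were 65.98 ± 1.77% for Pfkp, 32.1 ± 1.97% for Pfkl and 1.94 ± 0.198% for Pfkm. The activity of the enzyme is set by fructose 2,6-bisphosphate, which the bifunctional Pfkfb enzymes make and degrade. Pfkfb4 had 12.7 and 12.5 TPM and Pfkfb3, the member with the strongest kinase side, had 3.95 and 3.75. Pfkfb4 held 76.5 ± 0.457% of the TPM of this pair and stood 3.26 ± 0.0832 times above Pfkfb3. That ratio was 2.06 ± 0.0383 in the M4 gene table, 1.66 ± 0.14 by TPM of protein-coding transcripts and 1.29 ± 0.0929 by their expected counts.

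Lactate dehydrogenase and glycogen phosphorylase were also led strongly by 1 gene. Ldha, the subunit that favours the making of lactate, had 16.7 TPM in replicate 1 and 17.6 in replicate 2 and held 98.7 ± 0.851% of lactate dehydrogenase TPM, with Ldhb at 1.33 ± 0.851%. Among glycogen phosphorylases, Pygl held 94.8 ± 1.251% and the brain-type Pygb, at 2.72 and 3.41 TPM, held 5.21 ± 1.251%. The leading gene of each of the 7 families was the same in both libraries, and it was the same in the M4 gene table, in the alignment-free table, by expected counts and by TPM of protein-coding transcripts alone. By expected counts of protein-coding transcripts, Hk3 lay below Hk1 in replicate 1 (0.889 times). Not all families were compared on that scale.

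**Figure D2:**
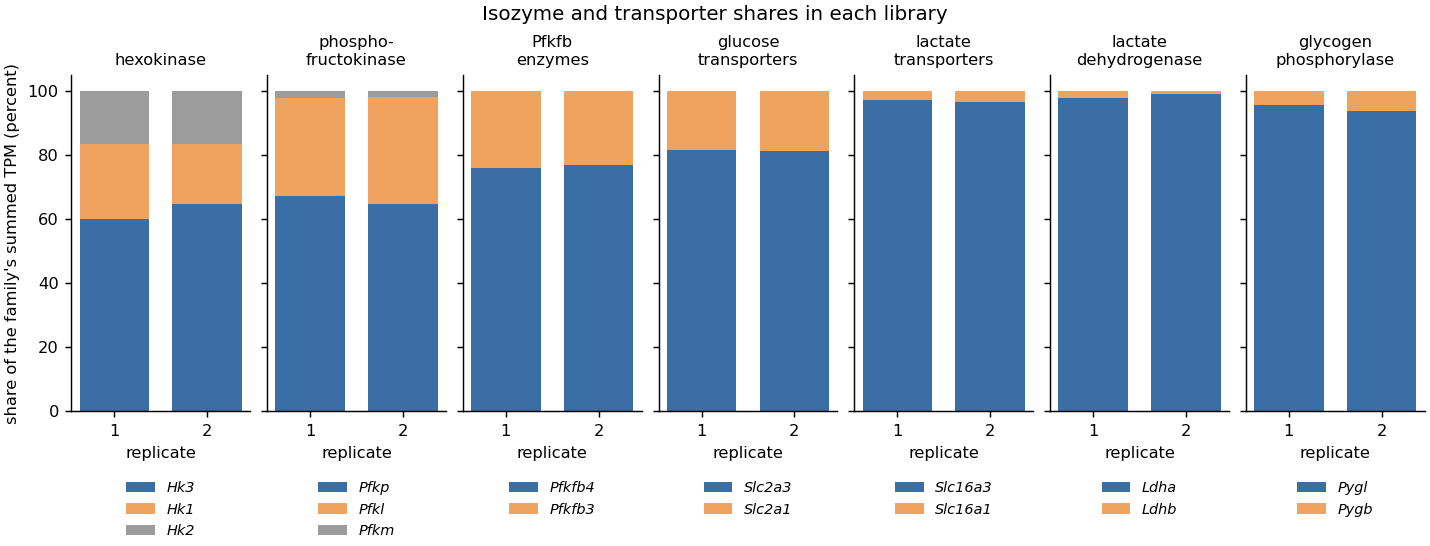
Share of each family's summed TPM (percent, from 0) that each isozyme or transporter takes in replicates 1 and 2, for the 7 families of the list. The leading genes hold from 60.0% (Hk3 in replicate 1) to 99.3% (Ldha in replicate 2), and no leading gene changes between the libraries.

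Followed along the route, the summed TPM of the genes at each step rose and fell several times. Hexokinase summed to 16.1 ± 0.0919, glucose 6-phosphate isomerase (Gpi1) to 33.8 ± 0.707 and phosphofructokinase to 10.3 ± 0.410. Aldolase (Aldoa) stood at 38.2 ± 2.61 and triosephosphate isomerase (Tpi1), which interconverts the triose phosphates that aldolase makes, at 4.54 ± 1.46, the lowest step of the chain. Farther down the pathway Gapdh stood at 47.7 ± 0.905, phosphoglycerate kinase (Pgk1) at 9.07 ± 0.290, phosphoglycerate mutase (Pgam1) at 8.41 ± 0.141, enolase (Eno1) at 29.6 ± 1.27 and pyruvate kinase (Pkm) at 70.9 ± 1.41. The highest step of glycolysis was pyruvate kinase in both libraries. The symbol Aldoa names 2 entries of the annotation, and the second held 3 and 0 counts and was left aside.

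All 7 genes of the pentose phosphate pathway were detected. In the oxidative arm, glucose 6-phosphate dehydrogenase (G6pdx), which makes the first NADPH, had 8.16 and 8.40 TPM, the lactonase Pgls 3.92 and 4.49, and Pgd, which makes the second NADPH, 14.7 and 14.4. In the non-oxidative arm, the transketolase Tkt had 13.0 and 13.5 TPM, the isomerase Rpia 6.79 and 6.28, and the epimerase Rpe 2.70 and 2.42. Taldo1 stood 9.47 ± 0.226 times above Pgd, the next gene of the pathway, and 16.7 ± 0.162 times above G6pdx. The size of this lead depends on the scale. By TPM of protein-coding transcripts alone it was 3.90 ± 0.397 times over Pgd and 5.39 ± 0.589 times over G6pdx. By expected counts of all transcripts, which are not per length, it was 4.08 ± 0.0168 and 5.78 ± 0.0696 times. It was smallest by expected counts of protein-coding transcripts, at 2.03 ± 0.201 and 2.32 ± 0.257 times. The median log2(TPM + 1) of the 16 glycolytic enzyme genes exceeded that of the 7 pentose phosphate genes by 0.09 in replicate 1 and 0.04 in replicate 2, a difference of 0.07 ± 0.04. That difference turned to -0.14 ± 0.05 with the M4 gene table, so the order of these 2 medians is not settled by these data.

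Glycogen is built from UDP-glucose, which Ugp2 makes, by glycogen synthase (Gys1) and the branching enzyme (Gbe1), and is broken down by the phosphorylases. The breakdown gene Pygl, at 60.1 and 52.5 TPM, stood above all 3 genes that build. Ugp2 had 8.29 and 7.58 TPM, Gbe1 2.94 and 1.97, and Gys1 0.85 and 1.19. The lowest value of Pygl lay above the highest value of Ugp2, the next glycogen gene.

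A further 80 genes of these pathways, outside the list, had lower medians. Of 20 further glycolytic genes 5 were detected, with Bpgm, which makes the 2,3-bisphosphoglycerate of red cells, highest at 14.5 TPM in replicate 1 and 13.4 in replicate 2. The enolase gene Eno1b followed at 10.1 and 5.86, the ADP-dependent glucokinase Adpgk at 5.03 and 4.41, and the muscle enolase Eno3 at 1.82 and 1.36. Hkdc1, Aldoc, Pfkfb1, Gapdhs, Pgk2, Pgam2, Eno2, Pklr, Ldhc, Fbp1, Fbp2 and Tigar did not reach a TPM of 1 in either library. Hkdc1, Fbp1 and Fbp2 held no count in either. Among these genes are isozymes known from brain and testis and both fructose bisphosphatases, which reverse the phosphofructokinase step.

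Among 16 further transporters and partners 8 were detected. Emb, a partner protein of monocarboxylate transporters, was highest at 36.2 and 33.3 TPM, followed by the mitochondrial pyruvate carrier subunit Mpc1 (10.6 and 9.17), the partner protein Bsg (9.51 and 8.57) and the transporter Slc2a6 (7.50 and 6.73). Slc2a2, Slc2a4, Slc2a5, Slc2a8, Slc2a9, Slc2a10, Slc2a12 and Slc16a8 were under a TPM of 1 in both. In the main table Slc2a6 thus had a TPM above that of Slc2a1 in both libraries. Slc2a1 had 6.99 and 6.84 TPM in the M4 gene table and 15.5 and 14.5 in the alignment-free table, where this order was not compared.

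Of 9 further pentose phosphate genes 5 were detected, led by the ribose phosphate synthetases Prps1l3 (3.89 and 3.85 TPM) and Prps2 (2.62 and 2.18), then Dera (2.27 and 1.66) and H6pd (1.60 and 1.67). Tktl1, Tktl2, Shpk and Rbks were under 1, with Tktl2 lowest at 0.01 and 0. Of 23 further glycogen genes 15 were detected, with the highest levels in the phosphorylase kinase subunit Phkg2 (6.43 and 7.19), the glycogen synthase kinase Gsk3a (7.34 and 6.14), the glycogen-targeting phosphatase subunit Ppp1r3b (6.53 and 6.09) and Gsk3b (5.17 and 4.44). Gys2, Phkg1, Ppp1r3c, Stbd1, Epm2a, Nhlrc1 and G6pc were under 1, and Gys2, the liver glycogen synthase, and G6pc, which releases free glucose in liver, held no count. Of 12 genes of pyruvate dehydrogenase and its regulators 8 were detected, led by the subunits Pdhb (8.21 and 6.68), Pdha1 (6.99 and 7.58) and Dld (7.49 and 5.87) and the kinase Pdk1 (3.35 and 2.95). Pdk2, Pdk4, Pdp1 and Pdp2 were under 1, and Pdk4 held no count. The median levels were 0.0825 ± 0.0813 TPM for the other glycolytic genes, 0.873 ± 0.103 for the other transporters, 1.22 ± 0.0283 for the other pentose phosphate genes, 1.18 ± 0.0636 for the other glycogen genes and 1.37 ± 0.0742 for pyruvate dehydrogenase.

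Pkm makes either of 2 pyruvate kinases by splicing in 1 of 2 mutually exclusive exons. The M2 enzyme is the form of leukocytes and growing cells, which can switch between active and inactive states, and the M1 enzyme is the always active form of muscle and brain. The exons are shown because they are what tells the transcripts apart. Each is 167 bases long and on the plus strand of GRCm38, at chr9:59675029-59675195 for the M1 exon of Pkm-202 and at chr9:59675568-59675734 for the M2 exon of Pkm-201. Capitals mark the 64 aligned positions at which they differ, and the other 103 are shared (61.7% identity). The sequences are those of the GENCODE M21 transcripts.
M1 exon of Pkm-202: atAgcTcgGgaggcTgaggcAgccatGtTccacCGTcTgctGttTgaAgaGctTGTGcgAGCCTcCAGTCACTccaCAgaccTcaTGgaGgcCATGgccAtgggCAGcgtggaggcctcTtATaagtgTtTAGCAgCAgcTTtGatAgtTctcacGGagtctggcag
M2 exon of Pkm-201: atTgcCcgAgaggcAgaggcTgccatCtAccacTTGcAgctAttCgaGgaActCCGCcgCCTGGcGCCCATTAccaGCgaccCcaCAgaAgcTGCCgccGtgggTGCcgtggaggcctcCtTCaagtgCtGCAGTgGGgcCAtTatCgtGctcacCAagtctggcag

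The M2-type transcript Pkm-201 took 55.4% of the gene's TPM in replicate 1 and 52.9% in replicate 2, and the M1-type transcript Pkm-202 took 31.0% and 34.99%. Pkm-205, a transcript with a retained intron, took 8.47% and 6.52%. Of the 2 coding transcripts together, Pkm-201 held 64.1% and 60.2%, a mean of 62.1 ± 2.78%. The alignment-free table put the same share at 76.5 ± 4.05%, so the M2-type transcript led in both tables while the size of its lead differed by more than the spread between libraries. Pkm-201 holds 558 bases that Pkm-202 lacks, of which 167 are the exon shown and the rest are longer ends, whereas the 167 bases of the M1 exon are the only ones of Pkm-202 that Pkm-201 lacks. Pkm-203, a retained-intron transcript at 3.38% and 4.10% of the gene's TPM, holds the M1 exon too, so reads over that exon can also be assigned to it. Reads were not analysed here, and the share therefore also depends on how reads over the longer ends were assigned. The gene model Gm49759, of the class TEC, overlaps Pkm on the same strand and held 1255 and 1221 expected counts, against 14283 and 13900 for Pkm.

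The tables also assign part of each gene to transcripts that the annotation does not class as protein-coding. Protein-coding transcripts held a median of 76.0 ± 0.0707% of the TPM of the 30 detected genes of the list, against 74.9 ± 0.332% over 7682 detected protein-coding genes. The median of the list thus lay near that of other genes, but single genes spread widely. In 16 of the 34 genes, 13 of them among the 30 detected (43.3%), protein-coding transcripts held over 80% in both libraries, against 38.9% of detected protein-coding genes. Among the 16 were Pygl (90.9% and 88.4%), Aldoa (93.1% and 91.8%) and G6pdx (99.6% and 97.7%). In 7 genes they held under 50% in both: Slc2a3, Hk3, Gpi1, Pfkfb4, Gapdh, Tkt and Taldo1. All 7 were detected, which is 23.3% of the 30, against 19.5% of detected protein-coding genes under 50% in both libraries. The alignment-free table put 6 of the 7 under 50% in both libraries, all but Hk3, which is 20.0% of the 30 against 27.8% of detected protein-coding genes in that table. Both shares of the list thus lay near the background.

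**Figure D3:**
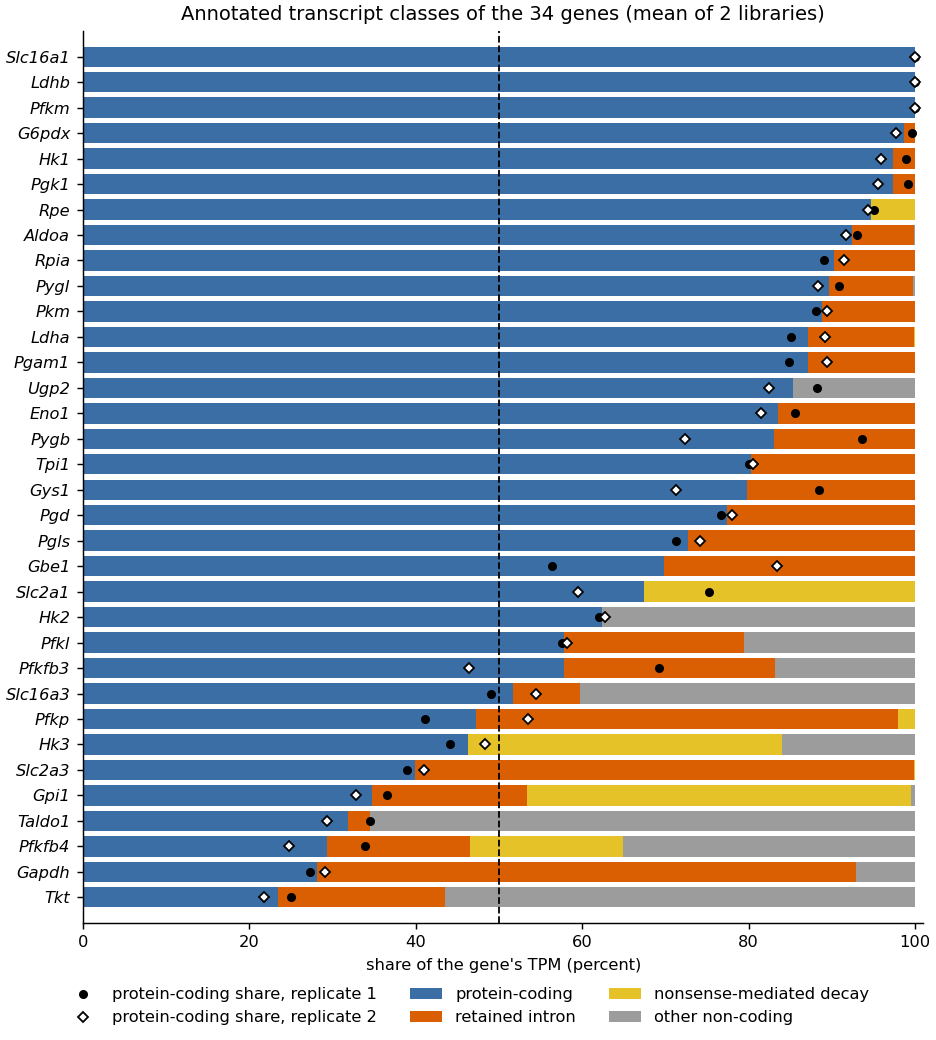
Share of each gene's TPM (percent, from 0) in protein-coding, retained-intron, nonsense-mediated decay and other non-coding transcripts, as bars of the mean of the 2 libraries, with points for the protein-coding share of replicates 1 and 2 and a dashed line at 50%. Both points of Slc2a3, Hk3, Gpi1, Pfkfb4, Gapdh, Tkt and Taldo1 lie left of the line.

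Taldo1, the highest gene of the list, was led by Taldo1-205, a processed transcript of 915 bases without an annotated reading frame. It took 62.7% of the gene's TPM in replicate 1 and 68.2% in replicate 2, and the coding Taldo1-201 took 34.04% and 28.9%. Of the bases of Taldo1-205, 95.8% lie in exons of the gene's coding transcripts and 38 do not. Those 38 bases, at chr7:141399428-141399465 on the plus strand, are its first and are shown in capitals, followed by 30 shared bases. They are shown because no other base of this transcript lies outside exons of the coding ones.
Taldo1-205: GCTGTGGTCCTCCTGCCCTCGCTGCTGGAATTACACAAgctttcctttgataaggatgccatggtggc

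Gapdh was led by Gapdh-206, a retained-intron transcript of 565 bases, at 60.95% and 56.45% of the gene's TPM. Of its bases 84 lie in no coding exon, at chr6:125162394-125162477 on the minus strand. They are printed in capitals between 30 exonic bases on either side, since all other bases of the transcript lie in exons of the coding ones.
Gapdh-206: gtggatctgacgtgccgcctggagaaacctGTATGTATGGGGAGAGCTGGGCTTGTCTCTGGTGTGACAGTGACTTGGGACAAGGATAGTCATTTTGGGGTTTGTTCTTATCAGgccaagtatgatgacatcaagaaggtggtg

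Other leading transcripts without a coding class were Tkt-209 (56.2% and 56.8%), Slc2a3-204, a retained intron (44.0% and 41.0%), Slc16a3-206 (40.3% in both), Gpi1-207 (36.9% and 48.1%) and Hk3-204 (36.5% and 38.9%), both classed as targets of nonsense-mediated decay, and Pfkfb4-205 (32.3% and 33.5%). They differ in how many of their bases lie outside exons of the gene's coding transcripts. Slc2a3-204 has 2534 of 6253 bases outside coding exons and Slc16a3-206 has 356 of 395, while Tkt-209 has 85 of 1962, and Gpi1-207 and Hk3-204 have 0. Slc16a3-206 shows what length does to the scale: it held 181 of the gene's 3369 expected counts in replicate 1 and 165 of 3105 in replicate 2. By TPM of protein-coding transcripts alone, Pkm was the highest of the 34 genes at 63.0 ± 0.651, Pygl the next at 50.5 ± 5.81 and Taldo1 the third at 44.0 ± 4.50. On that scale the libraries of Pygl (54.6 and 46.4) and Taldo1 (47.2 and 40.8) overlapped, so their order there is not resolved.

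Several genes share sequence with copies, so that reads can be split between them. A copy here is another annotated gene with at least 95% identity over at least 300 bases. Of the 34 genes 9 had such a copy and 8 had one with counts. Eno1 matched Eno1b at 99.5% identity over 1736 bases. Eno1b took 1560 (replicate 1) and 915 (replicate 2) expected counts by the main table, against 4671 and 4865 for Eno1, and all copies together took 25.3% and 16.3% of the sum. In the alignment-free table Eno1b held 1.52 ± 0.939% of the TPM of the pair, against 21.1 ± 6.99% in the main table, so the level of either gene is uncertain. Pgk1 matched the processed pseudogene Gm5537 at 100% identity over 1252 bases, and copies took 18.9% and 10.04% of its sum. Gapdh had 90 copies, of which 29 held counts, with 7.17% and 6.52% of the sum. For Ldhb, the copies held 4 and 0 counts beside its 17 and 15. The other 5 genes with a copy were Gpi1, Tpi1, Pgam1, Pkm and Ldha, and copies took at most 2.11% of their sums.

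Neighbouring genes overlap 21 of the 34 genes, and in 19 cases the neighbour held counts. Overlaps here are of whole gene spans, introns included, so they do not give how much transcript sequence is shared. How the counting treated strand is not stated in the sources used here, so for neighbours on the opposite strand the reads of the shared stretch may not be told apart. The largest such overlap with a protein-coding gene was G6pdx with Ikbkg, a subunit of the kinase that activates NF-kB, over 19712 bases. That is the whole span of G6pdx, whose leading transcript G6pdx-201 has 2652 bases. Ikbkg held 1545 and 1448 counts beside 1965 and 2019 for G6pdx. Pfkm, with 59 and 44 counts, overlaps Senp1, with 1658 and 1497, over 1156 bases. On its own strand Pfkm also overlaps Gm26513, with 63 and 40 counts, over 2489 bases. Gys1 overlaps Ruvbl2, with 481 and 470 counts, over 3253 bases. Pgls shares 3445 bases on the same strand with Fam129c, with 1071 and 891 counts beside its own 477 and 529.

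The levels of these genes differed little between the libraries. Genes entered this comparison if their TPM reached 1 and their expected counts reached 50 in the higher library, which 31 of the 34 did, and a (TPM + 1) ratio of 2 or more either way was called a difference. No gene of the 31 was called, against 0.923% of the 9097 genes tested in all, of which 0.561% were called higher and 0.363% lower in replicate 2. At a smaller ratio of 5 to 4, 2 of the 31 were called (6.45%), both lower in replicate 2, against 14.8% of all genes in either direction, 4.39% higher and 10.4% lower in replicate 2. The median log2 ratio of replicate 2 to replicate 1 was -0.03 for the 31 genes and -0.08 for all 9097, and 12 of the 31 were higher (38.7%) and 19 lower (61.3%) in replicate 2, against 31.4% and 68.1% of all 9097. As this sets 1 library against 1, no p-value was computed.

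The 2 genes were Tpi1, with 5.57 and 3.50 TPM, and Gbe1, with 2.94 and 1.97. Their (TPM + 1) ratios were 0.685 and 0.754. The ratio of expected counts scaled to library totals was nearer to 1, at 0.917 for Tpi1 (95% counting interval 0.809 to 1.04) and 0.883 for Gbe1 (0.785 to 0.994). The transcripts to which the counts were assigned moved at the same time. Tpi1-205, of 1607 bases, took 44.8% of the gene's TPM in replicate 1 and 76.7% in replicate 2, while Tpi1-203, of 802 bases, took 35.2% and 3.85%. For Gbe1, the retained-intron transcript Gbe1-205, of 658 bases, took 30.8% and 2.72%, and Gbe1-206, of 2736 bases, took 16.7% and 59.1%.

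The next 3 genes by ratio were Pygb at 1.19, Gys1 at 1.18 and Ldhb at 0.850. Gys1 had the largest count ratio of the 34 genes, 1.37 (1.16 to 1.63), from 242 and 315 counts. Pygb had a count ratio of 1.06 (0.966 to 1.16), and Ldhb had 0.931 (0.433 to 1.98), an interval set by its few counts. Among the highest genes the intervals were narrow: the count ratio was 1.07 for Taldo1 (1.04 to 1.09), 1.03 for Pkm (1.00 to 1.05) and 0.905 for Pygl (0.884 to 0.927). Such intervals hold counting error alone, and leave out other variation between libraries and errors in the assignment of reads. If PCR copies of a molecule were counted as separate reads, the intervals are too narrow even for counting error.

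**Figure D4:**
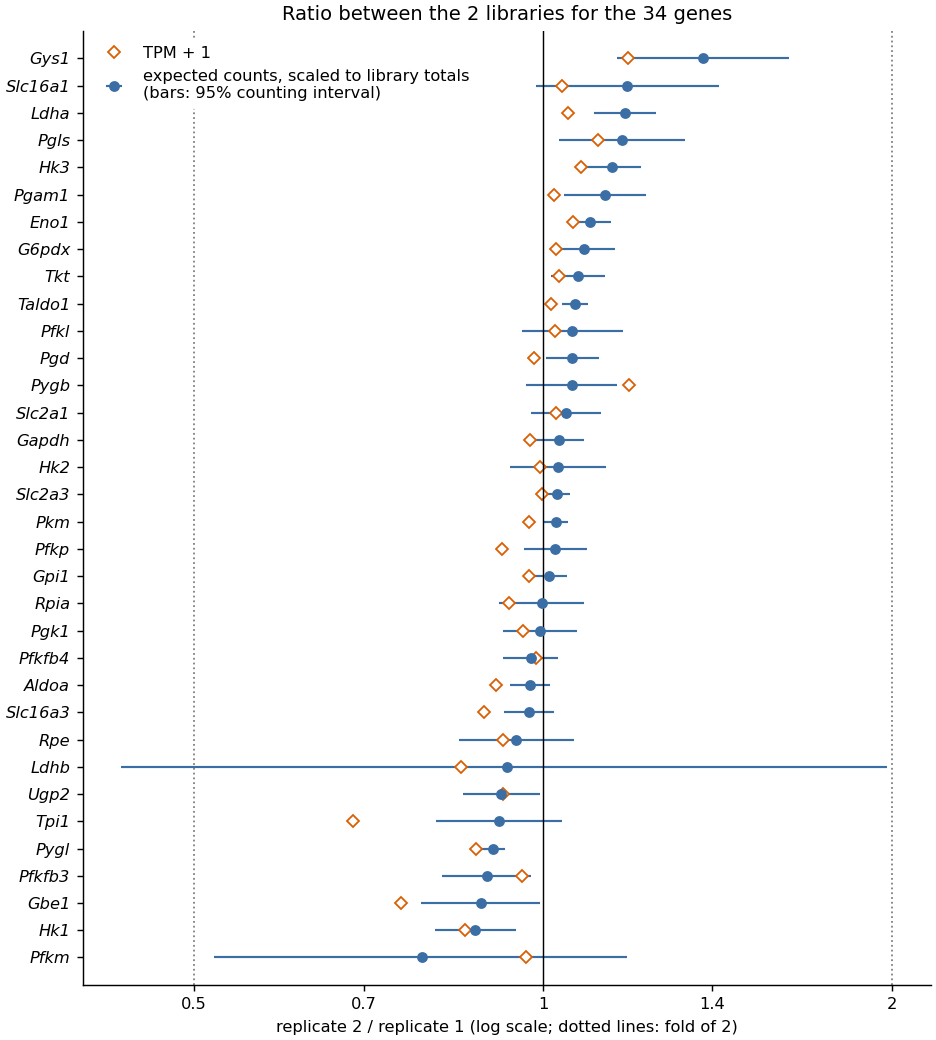
Ratio of replicate 2 to replicate 1 for each of the 34 genes (log scale), for expected counts scaled to library totals (circles, with the 95% counting interval) and for TPM + 1 (diamonds), with dotted lines at a fold of 2 either way. No point passes a dotted line. Diamonds stand apart from circles for Tpi1 (0.685 against 0.917), Gbe1 (0.754 against 0.883), Pfkm (0.967 against 0.787) and Gys1 (1.18 against 1.37), among others.

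The deposited tables placed the genes differently on the log2(TPM + 1) scale. The alignment-free table lay above the main table by a median of 0.72 over the detected protein-coding genes and by 0.71 over the 34 genes. Relative to that shift, Slc16a3 (1.99) and Slc2a1 (1.17) lay higher, and Hk2 (0.14) and Gbe1 (0.32) lower among the 30 detected genes. The undetected Ldhb (0.08), Pfkm (0.14) and Slc16a1 (0.28) lay low too, on a scale whose pseudocount of 1 shrinks differences between low levels. Slc16a3 had 83.8 and 71.3 TPM in the alignment-free table, which put it above Eno1 in both libraries there, where the main table has it below. The M4 gene table lay within 0.01 of the main table in the median of those protein-coding genes, and was lower for Pfkfb4 (-0.60), Tkt (-0.50), Pfkl (-0.42), Taldo1 (-0.29), Pgk1 (-0.24) and Gpi1 (-0.21). Taldo1 was the highest of the 34 genes in all 3 tables, and Pkm and Pygl were the next in each of them.

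**Figure D5:**
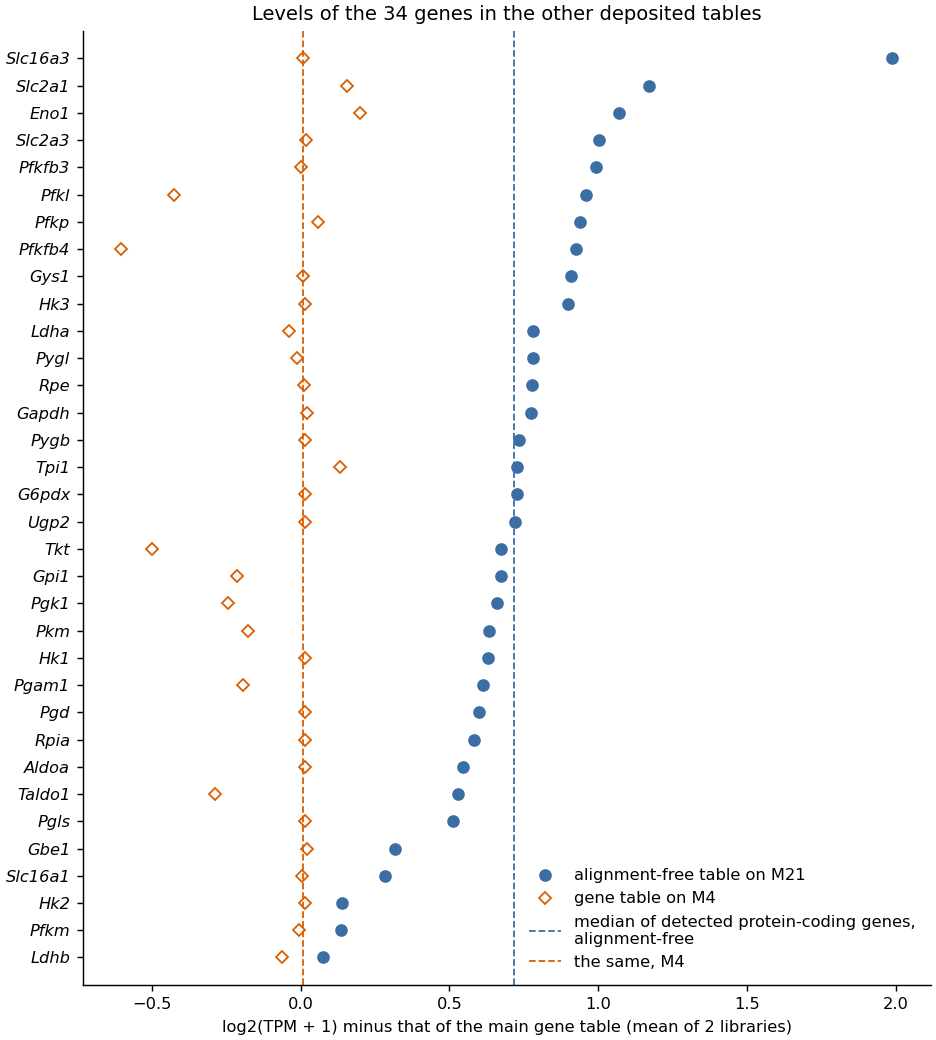
Difference of each gene's log2(TPM + 1), as the mean of the 2 libraries, from the main gene table, for the alignment-free table (circles) and the M4 gene table (diamonds), with dashed lines at the medians of detected protein-coding genes (0.72 and 0.01). Slc16a3 lies farthest right at 1.99 and Pfkfb4 farthest left at -0.60.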

How the data were processed

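Total RNA libraries of mouse blood neutrophils (1 group, replicates 1 and 2) were taken from the processed tables. The authors deposited gene and transcript tables that give, per the file headers, an expected count and a TPM for every gene or transcript, and in the transcript table the percent of its gene's TPM taken by each transcript, on GENCODE M21 (used as the main tables) and on GENCODE M4 (used for genes as an alternative), both on mm10. A further deposited table on M21, which names reads and no alignment as its source per the deposited file list, holds estimated counts and TPM of single transcripts and is called the alignment-free table. Sources used here do not name the programs or the strand setting. Each file holds 1 library. Symbols came from field 6 of the transcript identifier in the alignment-free table, which matched all 34 genes. Rows with no gene name held 1.63e-04% and 2.16e-04% of the expected counts and were left out.

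The 34 genes, the lists of other pathway genes, the markers and the thresholds were chosen with earlier results of these data known. Values per library are printed for every family of isozymes, the 6 highest and 4 lowest genes and the 5 with the largest ratio between libraries. Of the other pathway genes the 4 highest, the lowest and those under a TPM of 1 in both libraries are named, except for some that are not reported here. Levels of groups are medians of TPM or of log2(TPM + 1). Count ratios have an exact conditional binomial 95% interval from rounded expected counts. Copies were found with BLAST+ 2.17.0, and sequences come from the GENCODE M21 transcripts. Scaling alternatives used edgeR 4.0.16 (TMM) and DESeq2 1.42.0 size factors in R 4.3.3. Other steps ran in Python 3.11.15 (scipy 1.17.1, pandas 2.3.3, numpy 2.4.6). The calls between libraries at a fold of 2 were tested on simulated data. These held counting error alone, with changes and counts above the limits used here. That test does not cover the smaller ratio, low counts or errors in the assignment of reads. No p-value was computed, because there is 1 group. The spread between these 2 libraries may be technical.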

Additional observations from a re-analysis of the deposited data

How the results depend on the processing

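The number of detected genes was 30 in the main table, 30 with M4, 31 with the alignment-free table, 21 at a TPM of 5, 34 with at least 10 expected counts, and 30 to 31 with either library alone. No gene was called different between the libraries at a fold of 2 with TMM, DESeq2 size factors, a pseudocount of 0.1, rescaled TPM, no minimum, M4 or the alignment-free table. Leaving out a library is impossible for that comparison. The settings with a pseudocount of 0.1, M4 and the alignment-free table kept the minimum TPM of 1, and the setting with no minimum kept the pseudocount of 1. Genes under a TPM of 1 in both libraries therefore could not be called in these settings, which say nothing about them. Settings with protein-coding transcripts alone, and all alternatives for the ratio of 1 gene to another, were chosen after seeing the data. The median log2(TPM + 1) of the 34 genes, 3.19 in the main table, was 3.07 with M4, 3.96 with the alignment-free table, 6.58 with TPM rescaled to nuclear protein-coding genes (a shift of 3.27 in the median of those genes), 3.04 with a pseudocount of 0.1, 2.44 with protein-coding transcripts alone and 3.17 to 3.21 with either library alone. Glycolysis minus pentose phosphate, 0.07 in the main table, reversed to -0.14 with M4 and moved to 0.031 with the alignment-free table and 0.0067 with protein-coding transcripts alone, with 0.04 to 0.09 for either library alone. Shares of the leading gene moved by over 1 SD as follows. With M4, Pfkp held 74.8%, Pfkfb4 67.3% and Slc2a3 79.8%. With the alignment-free table, Hk3 held 68.9%, Pfkfb4 74.1%, Slc2a3 78.6%, Slc16a3 98.8% and Pkm-201 76.5% of its pair. By expected counts, Hk3 held 52.7%, Pfkp 70.2%, Pfkfb4 72.1%, Slc2a3 87.1%, Slc16a3 92.9% and Pygl 93.5%. By protein-coding transcripts alone, Hk3 held 48.3%, Pfkp 60.0%, Pfkfb4 62.4%, Slc2a3 72.4% and Slc16a3 94.3%. Either library alone gave 60.0% to 64.7% for Hk3, 64.7% to 67.2% for Pfkp, 76.2% to 76.9% for Pfkfb4, 81.3% to 81.8% for Slc2a3, 96.6% to 97.3% for Slc16a3, 98.1% to 99.3% for Ldha, 93.9% to 95.7% for Pygl and 60.2% to 64.1% for Pkm-201. The causes of these moves were not tested. The level of a single gene moved by over 1 SD for 12 of 34 genes with M4 and 33 of 34 with the alignment-free table. No paired analysis was possible because there is 1 group. Depth limits Ldhb and Pfkm most, whose counts lie between 15 and 59.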
